A study of Mus musculus with 14 samples.

Results

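The comparison described here set neural precursor cells (NPCs) differentiated for 4 days with auxin against NPCs differentiated for 4 days without it. The cells were F123, a mouse embryonic stem cell (ESC) line, in which CTCF carries an auxin-inducible degron (CTCF-AID), so that the control NPCs carried the tagged protein too. For depletion 1 µl of 500 mM auxin was added per ml of medium and renewed daily. The labels give neither the hours of auxin for the NPCs nor whether the line was 1 clone. Contacts of active promoters were measured by H3K4me3 PLAC-seq, in which chromatin is ligated in place and fragments carrying trimethylated lysine 4 of histone H3, a mark of active and poised promoters, are pulled down before sequencing. The series held 14 samples in 7 groups, with 2 samples in NPC control and 2 in NPC auxin. ESC lists without auxin and after 48 h of auxin were used as a reference only, and 3 groups carrying dCas9 are left aside. The comparison asks which promoter contacts differ when CTCF is depleted while the cells differentiate.

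A loop was a pair of 10 kb bins called by MAPS (the main caller) or FitHiChIP, and 2 loops were the same when both bins were equal. A control loop also in the auxin list was held, one absent from it was lost, and an auxin loop absent from the control list was new. The 2 NPC MAPS lists had 102137 loops between them, of 137221 over the 4 MAPS lists of NPCs and ESCs. NPC control had 82861 and NPC auxin 41667. The FitHiChIP lists had 44892 and 24836 loops, and their expected values imply totals of 52337421 and 59961568 contacts, so the auxin list was the shorter one although it was drawn from more contacts. MAPS listed the 19 autosomes only, with at least 12 contacts a loop. Each group had 1 list per caller, made in a way from its 2 samples that the sources used here do not give, so no difference between the groups has a replicate check. The 95% exact binomial (Clopper-Pearson) intervals cover counting error only and treat neighbouring loops as independent. A lost loop is a pair that no longer passed the caller's thresholds, not a contact shown to be absent. The lists do not measure CTCF, so the depletion itself was not checked here.

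CTCF is a zinc finger protein that binds DNA and halts the cohesin complex, which extrudes chromatin loops. Many loop anchors and domain borders therefore lie at CTCF sites, often oriented towards each other, and CTCF bound near a promoter can bring a distant enhancer within reach. Other promoter contacts, such as those among active promoters or among Polycomb-bound developmental genes, are known to form without CTCF. During neural differentiation, patterning factors, SOX proteins and the Notch, Hedgehog, Wnt, FGF and BMP pathways set the identity of progenitors. Their genes often lie in gene-poor regions with far enhancers, whereas the promoters of housekeeping genes crowd together.

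The named genes of the gene classes below included 7 whose RefSeq promoter window (GRCm38.p6, 250 bases before to 50 after the start) held a short form of the CTCF core motif on either strand, CCNNNAG followed directly by NNGGC, where N is any base. Of 37 named genes 28 had a window in the table. The 4 windows shown here belong to the 2 genes with the lowest and the 2 with the highest relative change in loops among those 7, chosen after their values were seen, so that the sequence can be read beside the loops. Capitals mark the match. They lie at chr7:137314396-137314695 (Ebf3, minus strand, match on the opposite strand), chr13:63565686-63565985 (Ptch1, minus strand), chr11:108920099-108920398 (Axin2, plus strand) and chr1:133610231-133610530 (Snrpe, minus strand), each printed 5′ to 3′ along the gene.
Ebf3: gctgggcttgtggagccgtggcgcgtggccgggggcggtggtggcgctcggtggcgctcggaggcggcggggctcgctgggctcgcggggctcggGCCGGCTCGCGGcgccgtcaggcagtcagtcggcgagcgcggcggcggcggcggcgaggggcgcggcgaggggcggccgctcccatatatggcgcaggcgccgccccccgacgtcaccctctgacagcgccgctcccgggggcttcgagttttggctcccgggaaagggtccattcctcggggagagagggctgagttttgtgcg
Ptch1: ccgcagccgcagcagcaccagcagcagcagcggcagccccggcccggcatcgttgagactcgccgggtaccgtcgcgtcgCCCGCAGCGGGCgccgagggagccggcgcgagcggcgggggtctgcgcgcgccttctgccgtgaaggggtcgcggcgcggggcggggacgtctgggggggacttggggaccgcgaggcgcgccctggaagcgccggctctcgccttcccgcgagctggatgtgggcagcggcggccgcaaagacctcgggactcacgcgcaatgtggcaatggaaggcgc
Axin2: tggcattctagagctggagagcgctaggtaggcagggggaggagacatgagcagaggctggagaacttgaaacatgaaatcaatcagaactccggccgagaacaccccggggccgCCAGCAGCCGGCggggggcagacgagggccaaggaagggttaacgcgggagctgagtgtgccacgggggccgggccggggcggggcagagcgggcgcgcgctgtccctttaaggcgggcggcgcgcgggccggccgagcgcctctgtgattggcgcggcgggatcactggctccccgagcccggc
Snrpe: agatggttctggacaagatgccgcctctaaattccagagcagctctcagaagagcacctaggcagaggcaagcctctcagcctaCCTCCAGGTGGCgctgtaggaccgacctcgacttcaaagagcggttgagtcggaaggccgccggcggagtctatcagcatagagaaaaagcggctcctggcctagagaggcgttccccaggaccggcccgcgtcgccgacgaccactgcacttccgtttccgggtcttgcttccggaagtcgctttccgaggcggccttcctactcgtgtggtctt

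The promoter bin of Ebf3, a transcription factor of neurons, had 62 MAPS loops in control and 15 with auxin, and that of Ptch1, the Hedgehog receptor, had 36 and 9. At Axin2, a scaffold of the Wnt pathway, 43 and 39 loops were called, and at Snrpe, a core spliceosome protein, 18 and 24. A match thus stood at promoters with few and with many loops left. Over all promoter bins with at least 10 loops in the 2 lists, a match was found in 12.1% (8.85 to 16.1) of 338 windows at bins with strongly fewer loops, in 13.6% (10.7 to 16.9) of 508 at bins with more and in 14.3% (12.9 to 15.9) of 2138 at the rest, against 8.61% of all 32851 windows. These intervals overlap. Control loops between 2 listed promoters were held in 36.3% of cases (34.7 to 38.0) with a match at neither, 39.3% (36.4 to 42.2) with a match at 1 and 46.9% (37.5 to 56.5) with a match at both, and these intervals overlap as well. With a shorter core, AGNGGGCGC, the shares were 37.0%, 41.4% and 15.8% (3 of 19). The windows cover 300 bases each, and CTCF sites elsewhere in the 10 kb bins were not searched.

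Of the 82861 control loops, 22391 were held with auxin, 27.0% (26.7 to 27.3), and 60470 were lost. The auxin list was not a subset of the control list, since 19276 of its 41667 loops were new, 46.3% (45.8 to 46.7). Over the 19 autosomes the share held ran from 21.8% to 32.8% and the share new from 41.3% to 49.4%. Many lost and new loops lay beside a loop of the other list. An auxin loop stood within 1 bin of both anchors for 31.5% of lost loops and within 5 bins for 62.0%, and a control loop stood as near to 44.3% and 76.4% of new loops. With anchors allowed to differ by 1 bin, 50.03% of control loops were held.

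The loops that MAPS lost were also rare in the auxin list of the other caller. Of the 60470 lost loops, FitHiChIP called 15430 in control and 1112 (1.84%) with auxin, and 93.0% of those 15430 were absent from its auxin list. Of the 11966 held loops that it called in control, 46.5% were absent from its auxin list. Of held loops it called 32.1% with auxin, and of new loops it called 18.0% with auxin and 2.82% in control. The callers thus differed over how many loops they listed, and 15754 of the 19276 new loops were in neither FitHiChIP list.

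In MAPS, lost loops were shorter than held loops, and held loops shorter than new ones. The median distance between anchors was 250 kb (SD over chromosomes 24.4) for lost, 280 kb (32.6) for held and 320 kb (35.1) for new loops. New loops had a longer median than lost loops on 19 of 19 autosomes, by 40 to 130 kb, and their median was the longer one under each of the 6 alternatives tried, by 30 to 120 kb. The order of held and lost did not: the held median exceeded the lost one by 30 kb, by 90 kb in FitHiChIP and by 0 kb at an FDR under 0.0001, and on FitHiChIP autosomes outside crowded windows the difference was -60 kb. Loops of 500 kb to 1 Mb made up 15.5% of lost, 18.2% of held and 23.3% of new loops. Held loops had stood on more reads in control, with a median of 32 contacts at 3.45 times the expected count, against 24 contacts at 2.92 times for lost loops. New loops had a median of 22 contacts at 2.76 times.

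Loops that joined 2 bins with an H3K4me3 peak (both-peak pairs) stood apart from those with a peak in 1 bin (1-peak pairs), in MAPS most at long distance. Under 100 kb, 1285 both-peak loops were called in control and 496 with auxin, which is 38.6 auxin loops per 100 control loops. From 100 to 200 kb the ratio was 50.6 per 100, from 200 to 500 kb 75.0, and from 500 kb to 1 Mb it was 99.8, with 2766 loops in control and 2760 with auxin. The long class kept its number but not its loops: 48.2% of its control loops (46.3 to 50.1) were held, and 51.7% of its auxin loops (49.8 to 53.6) were new. 1-peak pairs gave 31.8, 38.2, 48.7 and 54.4 auxin loops per 100 control loops over the same distances. In that class 25.7% of the 10694 long control loops were held.

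**Figure D1:**
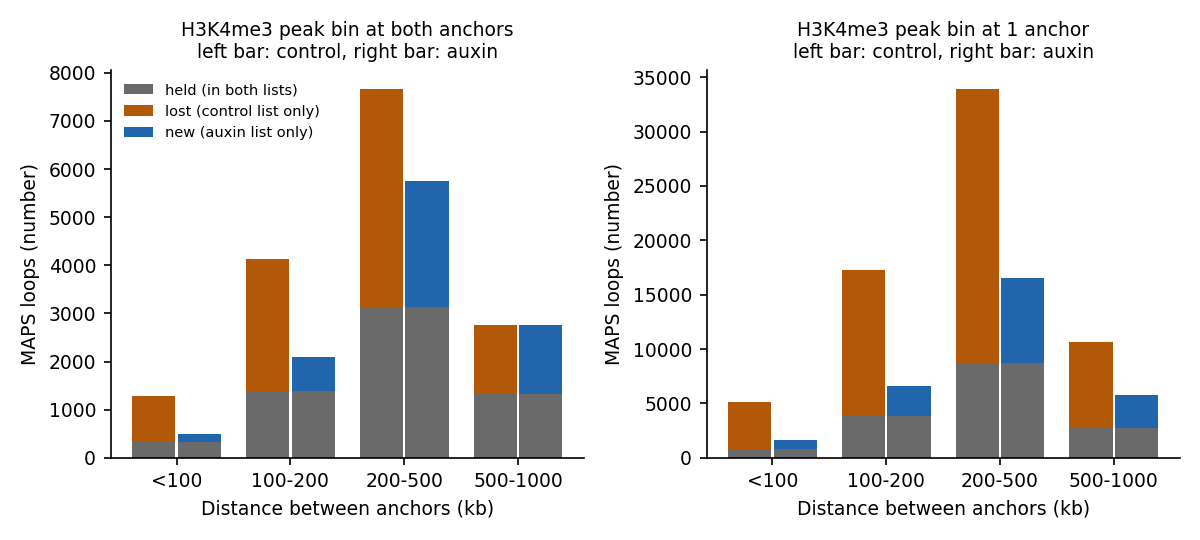
Number of MAPS loops (y axis) by distance between anchors in kb (x axis), for both-peak pairs (left panel) and 1-peak pairs (right panel). In each pair of bars the left bar is NPC control (grey held, orange lost) and the right bar NPC auxin (grey held, blue new). At both-peak pairs of 500 kb to 1 Mb the 2 bars are of nearly equal height, 2766 and 2760 loops.

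In FitHiChIP both-peak pairs again lay above 1-peak pairs at each distance. Its both-peak loops stood at 63.9 auxin loops per 100 control loops under 100 kb, 64.1 at 100 to 200 kb, 72.6 at 200 to 500 kb, 88.5 at 500 kb to 1 Mb and 104 at 1 to 2 Mb, a range that MAPS did not call. Its 1-peak loops did not rise steadily and stood at 38.2, 18.6, 21.3, 38.3 and 72.9 per 100 over the same 5 distances, so the 2 kinds of pair were closer at 1 to 2 Mb than at 200 to 500 kb. Some FitHiChIP loops crowd into a few windows (16 windows of 2 Mb with more than 200 loops). A further set, chosen after seeing the data, was the autosomes outside them. Its both-peak ratio was 72.8 per 100 at 200 to 500 kb, 88.6 at 500 kb to 1 Mb and 107 at 1 to 2 Mb. Its 1-peak ratio was 19.0, 29.4 and 43.7 over these distances. There the difference between the 2 ratios was not smaller at 1 to 2 Mb than at 200 to 500 kb. In that set 50.1% of the both-peak auxin loops of 500 kb to 1 Mb were new and 62.4% of those of 1 to 2 Mb.

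**Figure D2:**
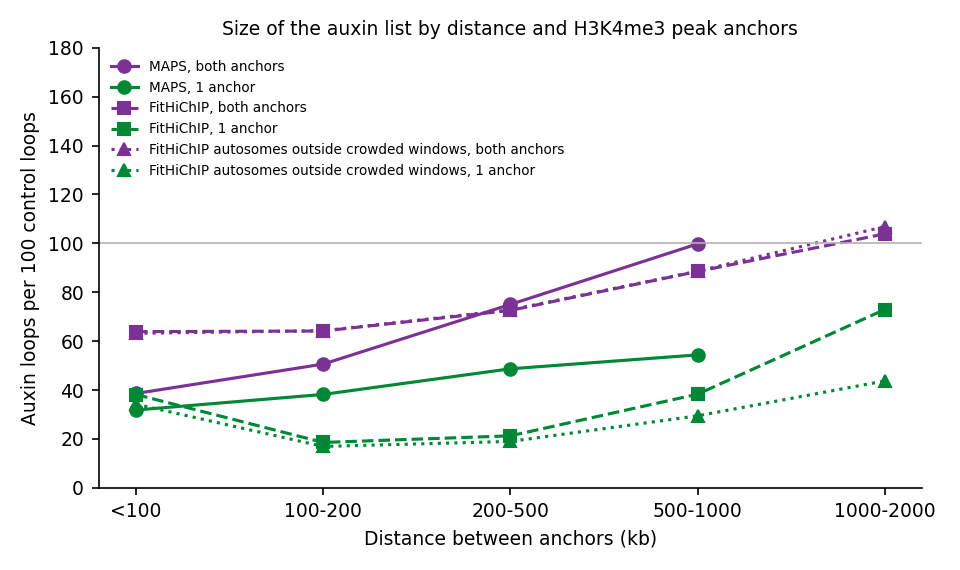
Auxin loops per 100 control loops (y axis) by distance between anchors in kb (x axis). Purple marks both-peak pairs and green 1-peak pairs; circles are MAPS, squares FitHiChIP and triangles FitHiChIP on autosomes outside crowded windows, and the grey line stands at 100. The purple lines reach 99.8 in MAPS and 88.5 in FitHiChIP at 500 kb to 1 Mb, while the green lines stay at or below 54.4 up to 1 Mb.

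Protein-coding promoter bins were placed in part by the NPC peak marks, so their loops are not an independent check of the both-peak pairs. Between promoter bins at both anchors, 5995 control and 4302 auxin loops were called, 38.1% (36.9 to 39.3) held and 46.9% new. At 500 kb to 1 Mb the numbers were 1196 and 1203, with 48.3% held and 52.0% new. Loops of a promoter bin with another peak bin were held in 37.7% of cases (36.6 to 38.7), loops of a promoter bin with a bin without a peak in 25.9% (25.5 to 26.4) and loops without a promoter bin in 23.0% (22.5 to 23.5). Of loops at promoters of known strand, those reaching upstream of the start were held in 31.7% of cases (31.1 to 32.3) and those reaching downstream, over or past the gene, in 27.4% (26.8 to 27.9). The share held differed by a few points with the number of peak bins that a loop spanned. At 100 to 200 kb it was 23.0% (22.1 to 23.9) with 0 or 1 spanned, 24.8% (23.8 to 25.8) with 2 or 3 and 26.8% (25.6 to 28.0) with more. At 200 to 500 kb it was 27.5% (26.8 to 28.1) with 0 to 2, 30.6% (29.7 to 31.5) with 3 or 4 and 28.6% (27.8 to 29.4) with more. At 500 kb to 1 Mb it was 29.4%, 31.4% and 30.7% with 0 to 2, 3 to 5 and more.

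Both-peak pairs were held more often than 1-peak pairs at every strength, whereas the difference by distance changed its sign. Control loops were split into 4 equal classes by their count over the expected count. From the weakest to the strongest class, 16.9%, 23.0%, 27.8% and 40.4% were held. Both-peak pairs exceeded 1-peak pairs by 8.96, 16.5, 24.1 and 28.5 percentage points in these classes. The share held at 500 kb to 1 Mb exceeded that under 100 kb by 23.7 points in the weakest class and 4.81 in the second, but fell below it by 11.3 and 26.3 points in the third and the strongest. Of the 379 strong both-peak control loops of 100 to 200 kb, 76.0% were held (71.4 to 80.2), against 57.7% (54.7 to 60.6) of the 1087 at 500 kb to 1 Mb. Long loops were mostly in the strong classes (7903 of 13460) and short ones in the weak (4137 of 6384 under 100 kb). Taken over all strengths, the share held was 18.1% under 100 kb and 30.3% at 500 kb to 1 Mb in MAPS, but 42.2% and 32.9% in FitHiChIP, so the direction of this difference in share held depends on the caller.

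**Figure D3:**
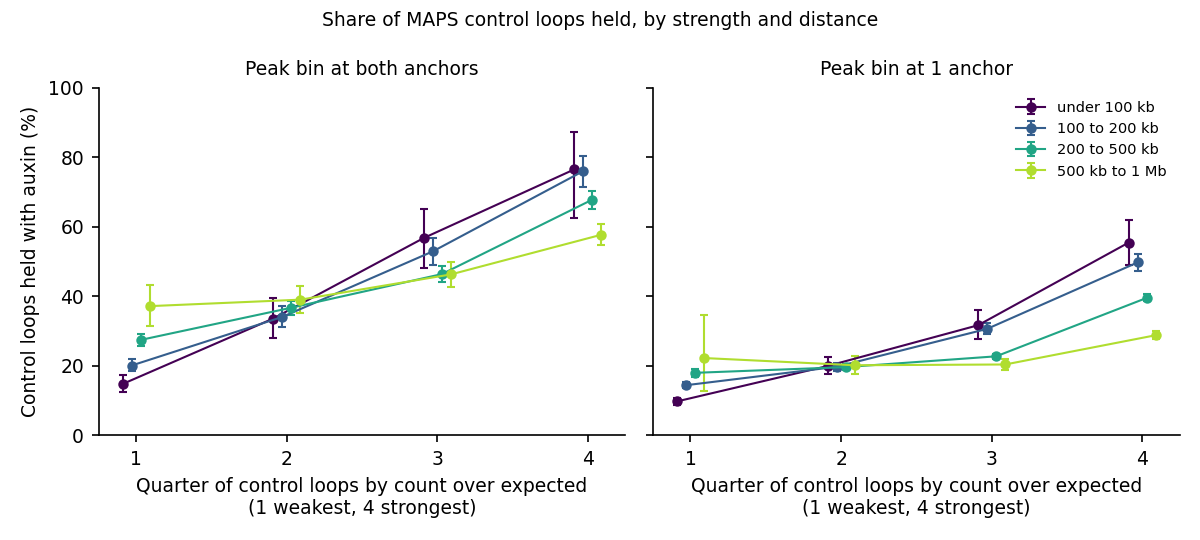
Share of MAPS control loops held with auxin in percent (y axis) in 4 equal classes of control loops ranked on count over expected count (x axis, 1 weakest, 4 strongest), for both-peak pairs (left) and 1-peak pairs (right). Colours are distance classes, bars are exact 95% intervals, and points rest on at least 20 loops. Among the strongest both-peak loops the share held was 76.0% at 100 to 200 kb and 57.7% at 500 kb to 1 Mb, the reverse of the order among the weakest.

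Contact counts at held loops were close in the 2 lists at the median and lower with auxin at the strong end. Over the 22391 held loops the median log2 ratio of auxin to control contacts was -0.07 (quartiles -0.38 and 0.19), or -0.27 when counts were divided by the total contacts of each list. Held loops were then split into 4 equal classes by their strength in both lists together, the summed counts over the summed expected counts. In the strongest class the median was -0.39 unscaled (quartiles -0.78 and 0.00), 15.1% of 5598 loops lay at a log2 ratio of -1 or below and 0.70% at 1 or above. In the weakest class it was 0.07. A held loop has to pass the caller's thresholds in both lists, so the ratios of weak loops are bounded on both sides. In the weakest class 0 loops lay at -1 or below and 0 at 1 or above. The ranking used the counts of both lists and not the control count alone, and why the strong class stood lower was not tested. Within the strongest class, pairs of promoters had a median of -0.22 and promoter loops to bins without a peak -0.44. In FitHiChIP the strongest class stood at -0.09 for both-peak and -0.03 for 1-peak pairs, or -0.13 and -0.17 outside the crowded windows.

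Of 17900 promoter bins, 10571 had a loop in either list. Of these, 7432 (70.3%) had fewer loops with auxin, 2147 (20.3%) more and 992 as many, and 3118 had none left. Where the 2 lists gave a bin 10 loops or more (3179 bins), 2504 (78.8%) had fewer with auxin, 507 (15.9%) more and 95 (2.99%) none. Changes were scored on log2(loops + 1) minus the list-wide ratio of -0.99, so that 0 is the change of the whole list. On this scale 372 bins (11.7%) lay at -1 or below and are called strongly lower; at 1 or above lay the same number, 507 (15.9%), that had more loops in all. Most bins exchanged partners, with lost, held and new loops at once in 2418 of 3179. Where they were known, reads near the promoter differed little between these classes. The short-range reads of the bins, an internal measure of H3K4me3 pull-down, were compared unscaled. Their median log2 ratio of auxin to control was 0.07 at strongly lower bins, 0.03 at the middle ones and 0.01 at the higher ones. The 0.07 covers 277 of the 372 strongly lower bins, since a bin without an auxin loop has no value. Of the strongly lower bins with at least 5 FitHiChIP loops, 225 of 278 were below 0 in FitHiChIP too, against 30 of 424 of the higher bins.

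Gene classes are described by the loops at the promoter bins of their members, set beside all promoter bins, where 53.2 auxin loops were called per 100 control loops, 29.0% of control loops were held (28.6 to 29.3) and 45.6% of auxin loops were new (45.0 to 46.2). Of all promoter bins with a loop, 70.3% had fewer loops with auxin and 20.3% more. The classes are unequal in form. Control loops per bin with a loop ran from 6.36 (cadherin and matrix genes) to 27.6 (SOX and POU factors) in the developmental classes and from 5.42 to 8.37 in the housekeeping ones. Both-peak pairs made up 9.06% to 19.5% and 21.6% to 40.0% of them. The 3 genes of each class with the most control loops are named first, and the members named after them were picked once their values were seen. A held contact given for a gene is the one with the most control contacts, a choice that favours fewer contacts with auxin.

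Neural tube patterning factors are the homeobox and zinc finger proteins that assign position. FitHiChIP gave them 41.7 auxin loops per 100 control loops, above the 32.8 of SOX and POU factors. In MAPS they stood lowest, with 793 control and 325 auxin loops (41.0 per 100). Of 42 bins with a loop 39 had fewer with auxin and 2 more. Their share held, 27.7% (24.7 to 31.0), was near that of all bins, while 32.3% of their auxin loops (27.3 to 37.7) were new, a smaller share than the 45.6% of all bins, but in FitHiChIP 37.8% were new against 38.2%. Sp8, a zinc finger factor of the forebrain and limb (chromosome 12, 118840001 to 118850000), had 74 loops in control and 36 with auxin, of which 35 were held and 1 was new. Irx3, an Iroquois factor of the neural tube (chromosome 8, 91800001 to 91810000), had 63 and 27 loops, 18 of them held. Emx2, a factor of the dorsal forebrain, had 54 and 27, with 24 held. At all 3 the held contact with the most control reads was far and had fewer reads with auxin. Emx2 with a peak bin 690 kb away had 117 contacts in control and 39 with auxin. Sp8 with a bin 390 kb away had 137 and 80, and Irx3 with a peak bin 550 kb away 101 and 77. Among the other members, Meis2, a homeobox cofactor, had 54 and 13 loops and Msx1 had 22 and 17. FitHiChIP called 40 and 8 at Meis2 and 11 and 7 at Msx1. Strongly lower bins were 4 of 30, 13.3%, close to the 11.7% of all bins.

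The SOX and POU factors of neural progenitors had 414 and 216 loops (52.2 per 100), with 14 of 15 bins lower and 1 higher. Their control loops were held more often than those of all bins, in 37.0% of cases (32.3 to 41.8), and 29.2% (23.2 to 35.7) of their auxin loops were new. Sox4, a SOX factor of differentiating progenitors (chromosome 13, 28950001 to 28960000), had the most loops of any named gene, 93 in control and 56 with auxin, 46 of them held. Sox6 (chromosome 7, 116030001 to 116040000) had 70 and 49, and 47 of the 49 were control loops. Sox11, another SOX factor of early neurons, had 47 and 14, with 10 held. FitHiChIP called 57 and 12 loops at Sox6, 55 and 18 at Sox4 and 22 and 7 at Sox11, and in that caller the class stood at 32.8 per 100, the lowest of all. The strongest held contact of Sox6, with a bin 670 kb away, had 81 contacts in control and 23 with auxin in MAPS and 75 and 22 in FitHiChIP. Sox2 had 35 and 18 loops of which only 8 were held, and Pou3f2 16 and 10 with 1 held.

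Notch pathway and proneural genes, which time the step from progenitor to neuron, kept 42.7% of their control loops (38.0 to 47.4) in MAPS but 32.9% in FitHiChIP, below all bins there, with 450 loops in control and 277 with auxin (61.6 per 100). Of their 37 bins 25 were lower and 9 higher, and the class lay above all promoter bins in 3 of 5 settings and below in 2. Its members parted. Ebf1, a helix-loop-helix factor of neurons (chromosome 11, 44610001 to 44620000), had 57 and 60 loops, 45 of them held. Ebf3, its close relative, had 62 and 15, and 14 of the 15 were control loops. Id2, an inhibitor of proneural factors, had 65 and 28. Hes1, the main Notch target repressor, had 39 and 31, and each of the 31 was a control loop. At Ebf1 the strongest held contact, 400 kb away, had 158 contacts in control and 54 with auxin, in FitHiChIP 152 and 52. MAPS called more loops there with auxin, whereas FitHiChIP called 40 in control and 34 with auxin. At Ebf3 the contact with the promoter bin of Mgmt, 420 kb away, had 45 contacts in control and 52 with auxin.

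The Hedgehog and Wnt pathway genes had 591 and 281 loops (47.5 per 100), with 40 of 50 bins lower and 7 higher, 30.5% held (26.8 to 34.3) and 35.9% new (30.3 to 41.9). Among ligands, Wnt7b (chromosome 15, 85580001 to 85590000) had 35 loops in control and 5 with auxin, with 0 new, and FitHiChIP called 17 and 1. Its 144 contacts with a bin 100 kb away were no longer listed, while the loop to a peak bin 80 kb away had 139 contacts in control and 95 with auxin. Among receptors, Ptch1 had 36 and 9 loops, and its strongest held partner, the promoter bin of Ercc6l2 250 kb away, had 100 contacts in control and 118 with auxin. Among intracellular members, Axin2 had 43 and 39 loops, of which 16 of the auxin ones were new, the strongest of these to the promoter bin of Gna13 with 52 contacts. Gli2, a Hedgehog transcription factor, had 14 and 1, its relative Gli3 30 and 16, and Sufu, an inhibitor of both, 8 and 12.

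FGF and BMP pathway genes had 658 and 320 loops (48.6 per 100), with 36 of 45 bins lower and 5 higher. In MAPS 31.9% of control loops were held (28.4 to 35.6) and 34.4% of auxin loops were new (29.2 to 39.9), in FitHiChIP 19.0% and 48.6%, so that both shares changed sides against all bins. Among ligands of the wider TGF-beta family, Tgfb2 (chromosome 1, 186700001 to 186710000) had 64 and 18 loops and Bmp2 48 and 17, in FitHiChIP 50 and 4 and 22 and 6. Fgfr2, an FGF receptor, had 58 and 34, with 32 held, and its contact 610 kb away had 140 contacts in control and 59 with auxin. Of the inhibitors, Fst had 43 and 8 and Nog 15 and 13, and Spry2, a brake on FGF signalling, had 47 and 41. Inhba, an activin subunit, had 14 and 0 in MAPS and 18 and 1 in FitHiChIP.

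Axon guidance genes had 795 and 358 loops (45.0 per 100), and of 47 bins with a loop 46 had fewer and 0 more, the remaining one as many. They had the smallest share of new loops of the 12 classes, 23.5% (19.2 to 28.2), beside a share held of 34.5% (31.2 to 37.9). Nrp1, a semaphorin coreceptor (chromosome 8, 128350001 to 128360000), had 80 and 65 loops, 60 of them held, and Nrp2, its paralogue, 57 and 20 with 16 held. Epha4, an ephrin receptor, had 75 and 37, with 34 held. FitHiChIP called 62 and 26 loops at Nrp1, 62 and 20 at Epha4 and 46 and 9 at Nrp2. Efnb2, an ephrin ligand, had 54 and 7, Flrt3 36 and 2 and Slit2, a repellent, 11 and 0, and FitHiChIP called 27 and 1, 14 and 1 and 11 and 1 there. Ephb3 had 24 and 24.

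Cadherins and extracellular matrix genes kept 22.8% of their control loops (17.9 to 28.4), the lowest share of the 12 classes in MAPS, whereas FGF and BMP genes were lowest in FitHiChIP (19.0%, against 22.3%) and at an FDR under 0.0001 (17.6%, against 20.6%). They had 267 and 117 loops (43.8 per 100), with 47.9% new (38.5 to 57.3). Of 42 bins 32 were lower and 7 higher, and 5 of 19 with at least 10 loops (26.3%) were strongly lower, 3 with none left. Of all promoter bins with at least 10 loops 11.7% were strongly lower and 2.99% had none left. The strongly lower share was as high at neuronal genes (4 of 15, 26.7%), 22.2% at Hedgehog and Wnt genes and 0 at SOX and POU factors. Cdh2, the cadherin of the neural tube, had 17 control loops and 0 auxin loops, and FitHiChIP called 6 and 2. Celsr1, a cadherin of planar polarity, had 16 and 14, and Crb2, a protein of apical polarity, 16 and 18. FitHiChIP called 9 and 9 loops at Celsr1 and 2 and 2 at Crb2. Vcan, the proteoglycan gene that the study targeted in other groups (chromosome 13, 89740001 to 89750000), had 14 and 0, and FitHiChIP called 18 and 1. Its strongest lost partner, a peak bin 350 kb away, had 35 contacts in control. Reln, a guide of neuronal migration, picked for its values, had 10 and 0.

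Neuronal channel, receptor and synapse genes, most of them for later neurons, had 430 and 199 loops (46.3 per 100), with 44 of 48 bins lower and 1 higher, 30.7% held (26.4 to 35.3) and 33.7% new (27.1 to 40.7). Grik4, a glutamate receptor, had 52 and 41 loops, Rims2, a protein of the presynaptic zone, 47 and 38, and Gad1, which makes the transmitter GABA, 33 and 31. At Gad1 28 of the 33 control loops were held (84.8%, 68.1 to 94.9), whereas at Rims2 17 of 47 were held and 21 loops were new. Slc17a6, a glutamate transporter, had 15 and 0 and Kcnh1, a potassium channel, 13 and 0, with 5 and 0 and 9 and 0 in FitHiChIP. FitHiChIP called 26 and 13 loops at Grik4, 18 and 7 at Rims2 and 23 and 13 at Gad1.

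The housekeeping classes kept more of their loops in number. Chromatin regulators had 385 and 271 loops (70.4 per 100), with 31 of 46 bins lower and 10 higher, 42.1% held (37.1 to 47.2) and 40.2% new (34.3 to 46.3). Jarid2, a Polycomb cofactor, had 51 and 29, Arid2, a subunit of a remodelling complex, 37 and 24, and Bmi1, a Polycomb protein (chromosome 2, 18670001 to 18680000, a bin shared with Commd3), 36 and 43. At Bmi1 22 of the 43 were new, the strongest to the promoter bin of Pip4k2a, while the held contact with Dnajc1 had 86 contacts in control and 103 with auxin. FitHiChIP called 17 and 13 loops at Bmi1, fewer with auxin. Cell cycle and replication genes had 336 and 250 loops (74.4 per 100), the highest of the 12 in MAPS. Of their 62 bins 36 were lower and 16 higher, and 48.8% of their auxin loops were new (42.5 to 55.2). Their cyclin genes Ccnd1 and Ccnd2 had 26 and 17 and 26 and 20, and the phosphatase gene Cdc25a 21 and 16. Mcm7, of the replicative helicase, had 2 and 12, and Cdk1, the mitotic kinase, 7 and 12, in FitHiChIP 4 and 6 and 2 and 8.

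Proteasome and respiratory chain genes had 446 and 298 loops (66.8 per 100), with 41 of 64 bins lower and 12 higher. Psmd12, of the proteasome lid, shares its bin with Pitpnc1 and had 28 and 32 loops, 26 of them held, but 12 and 5 in FitHiChIP. Atp5o, of the ATP synthase, had 22 and 16, and Ndufa7, of complex I, 19 and 5 at a bin shared with Rps28. Splicing and translation factors had 325 and 210 loops (64.6 per 100), with 39 of 59 bins lower and 14 higher, and 51.4% of their auxin loops (44.5 to 58.4) were new, the highest share of the 12 in MAPS, against 46.0% in FitHiChIP, where 4 classes lay above it. The initiation factor genes Eif1a and Eif4e had 25 and 16 and 19 and 10, and Snrpe 18 and 24. FitHiChIP called 9 and 10 loops at Eif1a, 6 and 4 at Eif4e and 13 and 12 at Snrpe.

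In FitHiChIP the housekeeping classes again stood above all promoter bins, which had 57.8 auxin loops per 100 control loops. Chromatin regulators stood at 79.1, cell cycle genes at 76.1, splicing and translation factors at 71.1 and proteasome and respiratory chain genes at 60.4. The developmental classes stood below all bins, but in another order than in MAPS. SOX and POU factors stood at 32.8, axon guidance genes at 34.4, FGF and BMP genes at 36.9 and neuronal genes at 38.4. Patterning factors stood at 41.7, cadherin and matrix genes at 42.7, Hedgehog and Wnt genes at 47.0 and Notch genes at 56.0. Over 5 settings the 4 housekeeping classes lay above all promoter bins each time, and 7 developmental classes below each time. The share held did not follow that order, and for 6 developmental classes it turned with the caller. Against 29.0% of all bins in MAPS and 35.7% in FitHiChIP, SOX and POU factors kept 37.0% and 19.0%, Notch genes 42.7% and 32.9%, FGF and BMP genes 31.9% and 19.0%, axon guidance genes 34.5% and 24.1%, neuronal genes 30.7% and 22.8% and Hedgehog and Wnt genes 30.5% and 29.8%. Among housekeeping classes, proteasome and respiratory chain genes turned too. They kept 36.5% in MAPS, above all bins, and 35.5% in FitHiChIP, just below them. The share of new loops depended on the caller as well. In FitHiChIP 38.2% of auxin loops at all promoter bins were new, 37.8% at patterning factors, 42.0% at SOX and POU factors, 41.3% at Notch genes, 48.6% at FGF and BMP genes and 29.8% at axon guidance genes. The classes differed in the anchors of their loops as well. Both-peak pairs made up 12.9% of the control loops of patterning factors and 9.06% of those of axon guidance genes, against 33.3% for cell cycle genes and 40.0% for splicing and translation factors. Among loops with 1 peak bin, 23.4% were held at patterning factors, 36.2% at cell cycle genes and 41.4% at chromatin regulators. How much of the class differences goes with the anchors was not tested.

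**Figure D4:**
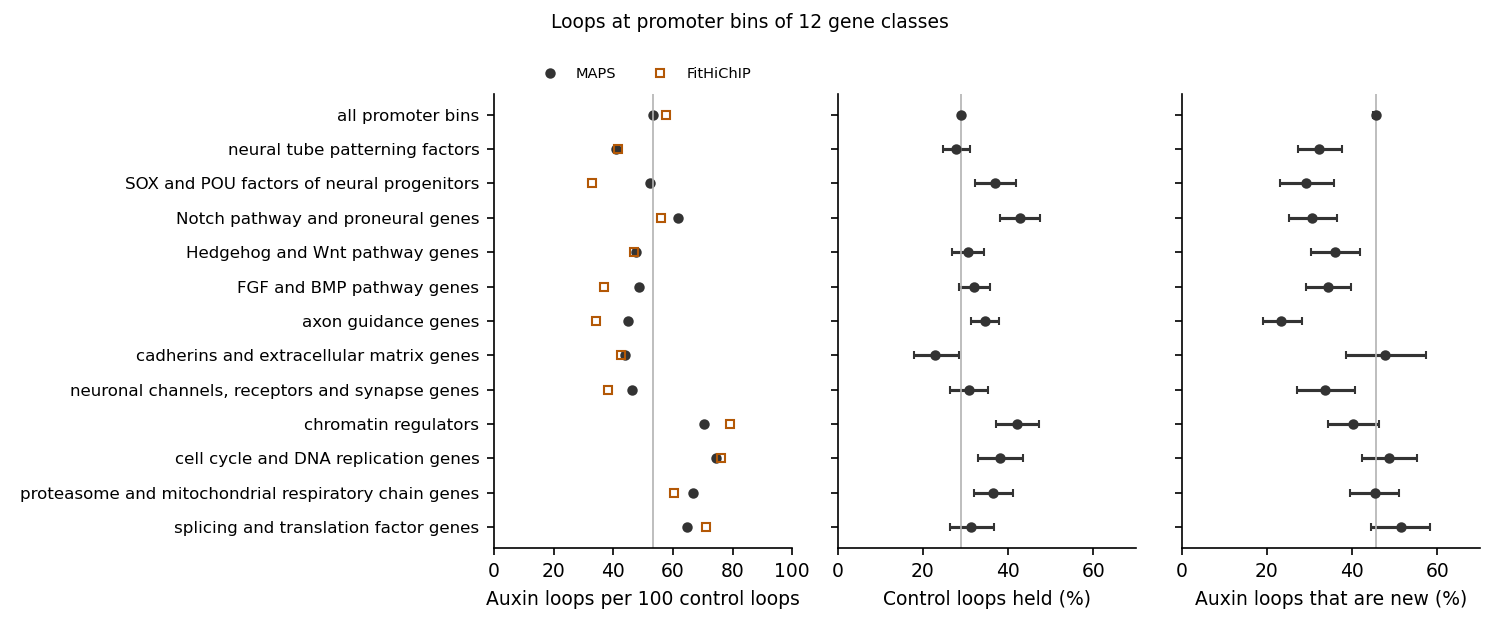
Auxin loops per 100 control loops in MAPS (filled circles) and FitHiChIP (open squares), share of MAPS control loops held and share of MAPS auxin loops that were new, both in percent (x axes), for the promoter bins of 12 gene classes (rows). Bars are exact 95% intervals and the vertical line is the MAPS value of all promoter bins. The 7 developmental classes other than the Notch genes lie left of the line in the first panel, and the 4 housekeeping classes right of it, from 64.6 to 74.4 in MAPS.

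Distance entered the classes unevenly. At 500 kb to 1 Mb all promoter bins had 9744 control and 6585 auxin loops, 67.6 per 100. Chromatin regulators had 47 and 52 (111 per 100) and proteasome and respiratory chain genes 69 and 74 (107). Patterning factors had 331 and 157 (47.4 per 100), axon guidance genes 285 and 133 (46.7) and FGF and BMP genes 173 and 74 (42.8). Cadherin and matrix genes had 50 and 15 (30.0 per 100) with 3 held. Cell cycle genes had 62 and 50 long loops (80.6 per 100) and splicing and translation factors 67 and 49 (73.1). Neuronal genes were close to all promoter bins, with 98 and 69 long loops (70.4 per 100), and 47 of the 98 were held (48.0%, 37.8 to 58.3). SOX and POU factors had 165 and 100 (60.6 per 100), Notch genes 138 and 82 (59.4) and Hedgehog and Wnt genes 74 and 41 (55.4).

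**Figure D5:**
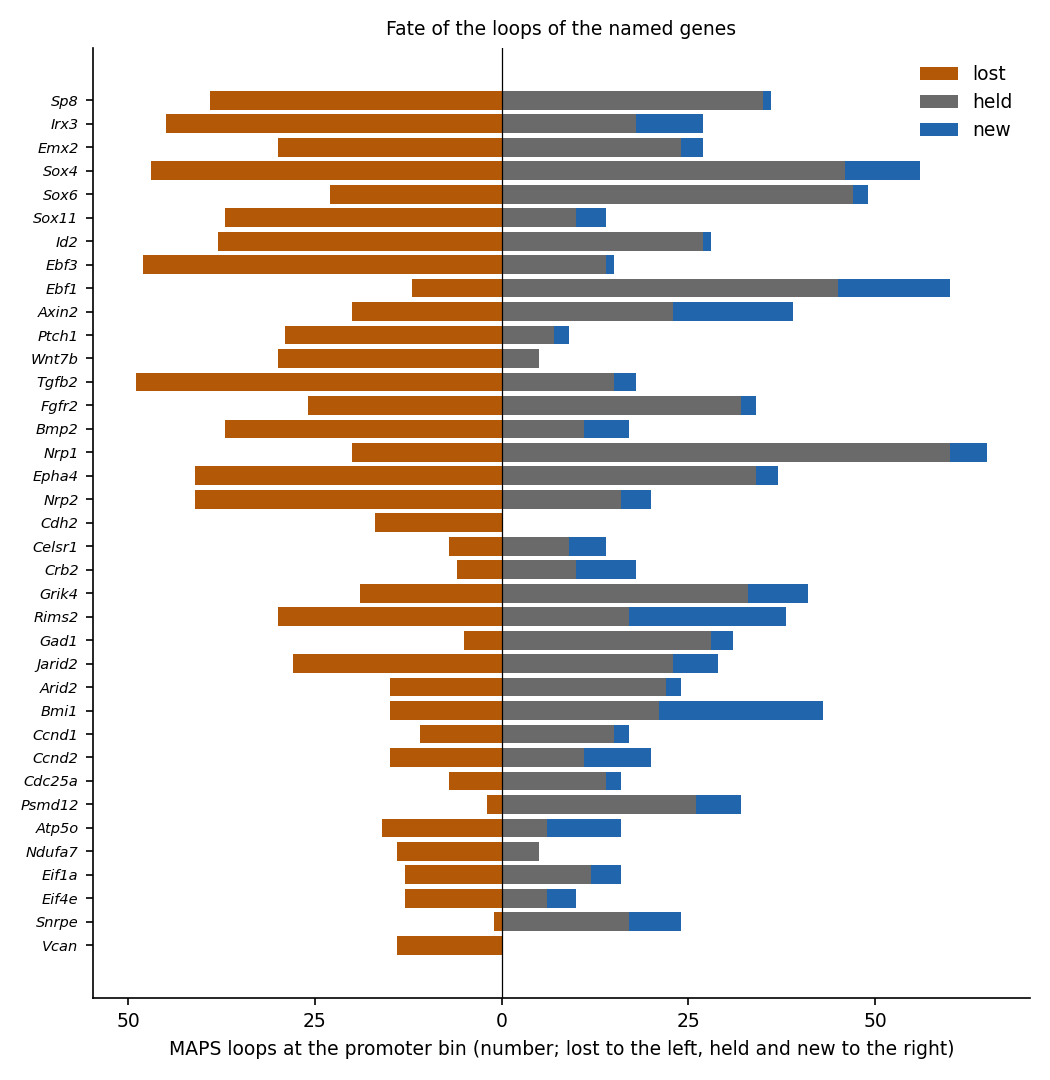
MAPS loops at the promoter bin (x axis, number) of the 37 named genes (rows): lost loops to the left in orange, held loops to the right in grey and new loops beyond them in blue. Cdh2 and Vcan have lost loops only, Sox6 and Nrp1 have long grey bars with 47 and 60 held loops, and Bmi1 and Rims2 have the most new loops, 22 and 21.

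Of the 37 named genes, 32 had fewer MAPS loops with auxin and 5 more, and FitHiChIP called fewer at 34, more at 1 and as many at 2. Since the named genes were picked for many control loops, fewer loops with auxin are favoured by the choice. A held loop remained at 35 of them. The strongest held contact of a gene was picked on its control contacts, so fewer contacts with auxin are favoured there too. It went to a bin without a peak for 21 genes and had more contacts with auxin at 1 of these (Epha4, 157 and 173, 60 kb away). It went to another peak bin for 14 genes and had more contacts with auxin at 5: Ebf3, Ptch1, Bmi1, Cdc25a with Atrip 800 kb away (44 and 49) and Eif4e (40 and 41). At Ccnd1, by contrast, the contact with a bin without a peak 310 kb away had 131 and 45.

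Pairs of protein-coding promoters on which both callers concurred numbered 1979 lost, 1684 held and 957 new loops, with medians of 280, 340 and 400 kb. The lost pairs with the most contacts were short, as were the held and new ones, since raw counts are higher at short distance. Junb, an AP-1 transcription factor gene, and Hook2 lay 20 kb apart with 750 contacts in control, where 341 were expected, and Tubb5, a tubulin gene, and Dhx16 lay 40 kb apart with 383 contacts where 159 were expected. Neither was in an auxin list. Among lost pairs over 500 kb, Mafk and Eif3b (620 kb) had 49 contacts where 8.18 were expected. Gphn and the bin of Atp6v1d and Eif2s1 (640 kb) had 43 where 11.5 were expected.

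The strongest held pair by its lower count was Cdc73, of the Paf1 elongation complex, and Glrx2, 30 kb apart, with 341 contacts in control and 299 with auxin. Arl4d and Dhx8 (70 kb) had 392 and 289. Of long pairs, Crlf2 and Gtpbp6 (550 kb) had 144 and 117, and Lbx1, a homeobox gene, and Npm3 (510 kb) had 86 and 99. The new pairs with the most contacts were Pdlim4 and P4ha2 (40 kb, 279 contacts where 136 were expected) and Appbp2 and Ppm1d (80 kb, 272 where 116 were expected). Over 500 kb they included Srrm1 and Srsf10 (500 kb, 52 contacts), both genes of splicing proteins, and Ccno and Snx18 (630 kb, 48 contacts). The short lost and new pairs named here lay not far above 2.00 times the expected count, the lowest ratio in the MAPS lists.

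Loops already present in ESCs were held more often than others. Of held loops 50.9% (50.3 to 51.6) were in the ESC control list, of lost loops 28.3% (28.0 to 28.7) and of new loops 10.8% (10.4 to 11.3). The order was the same within each distance class, with 36.0%, 13.6% and 6.44% at 500 kb to 1 Mb. The fates also ran in parallel. Of the 11407 held loops in ESC control, 52.2% were held in ESC auxin, against 18.6% of the 17140 lost ones. New loops were in ESC auxin in 12.9% of cases (12.5 to 13.4). Strong loops are called more often in each list, and strength was not separated from these shares.

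The cell type was checked by the reads over marker promoters, known only for bins with a FitHiChIP loop. Of 8 neural progenitor markers measured in both cell types, 7 had more reads, scaled to total contacts, in NPC control than in ESC control (median log2 ratio 0.60), as did 1 of 5 pluripotency markers (-0.33). All 8 mesoderm and endoderm markers did too (median 0.44, with Gata6 at 1.75), and 6 of 6 neural crest markers (0.57), so the marks were not those of neural progenitors alone. Of neuron markers 1 of 2 did (0.18). H3K4me3 also covers poised promoters. With auxin against control the first 4 lists had medians of -0.12 (10 genes), 0.00 (5), -0.12 (6) and -0.06 (6) in the same order, scaled by total contacts. For neuron markers it was -0.12 over only 2 genes. Promoter bins in general stood lower on that scale, with medians of -0.15, -0.17 and -0.16 at strongly lower, middle and higher bins. A change of cell state with auxin and a direct loss of contacts cannot be told apart in these lists.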

How the data were processed

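F123 CTCF-AID cells were profiled by H3K4me3 PLAC-seq. Reads were processed with BWA and Picard on mm10, per the submitters' processing notes, which give no versions. The loop lists were called by MAPS and FitHiChIP, per the labels, on bins of 10 kb, per the file headers. Contact counts were deposited by the authors as raw reads per bin pair. The expected contacts, a model signal, and the ratio of count to expected count were deposited in the callers' columns. The expected fraction of all contacts came from the authors' FitHiChIP lists and gave each list's total contacts. Reads of each anchor bin and marks for H3K4me3 peaks were in the lists too. The FDR or q-value was the callers', as deposited, and lay under 0.01 in each list.

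Loops were matched on equal bins (python 3.11.15, numpy 2.4.6, pandas 2.3.3, scipy 1.17.1, figures matplotlib 3.10.9), and shares carry exact Clopper-Pearson 95% intervals. With 1 list per group no test between groups was run. Promoter bins came from RefSeq starts (GRCm38.p6, the assembly behind mm10), with 19695 of 21900 protein-coding genes placed in 17900 bins. Starts of 17492 genes were listed, and 2203 more were placed by the gene end that lay in a peak bin. Where a gene had several listed starts, a start in a peak bin of the NPC lists was preferred. A bin with several genes counted once. Relative change was log2((auxin + 1)/(control + 1)) minus the list-wide -0.99. Named genes were the 3 members of each class with the most control MAPS loops, whatever their change, and Vcan, which the study targeted. Named loops were promoter pairs given the same fate by both callers, the 6 with the most contacts in each fate and the top 3 over 500 kb. Members and gene lists were chosen with earlier results of these data known. Matching and counting were tested on simulated lists. Alternatives are given in the closing section. Some genes and loops that these rules name are not reported here.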

Additional observations from a re-analysis of the deposited data

How the results depend on the processing

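No paired analysis was possible because each group had 1 list per caller. With FitHiChIP, 35.8% of control loops were held in place of 27.0% and 35.4% of auxin loops were new in place of 46.3%. The excess in share held of both-peak over 1-peak pairs was 16.7 points (14.9 in MAPS), and that of 500 kb to 1 Mb over under 100 kb turned from 12.3 to -9.30. Held minus lost medians differed by 90 kb (30 in MAPS) and new minus lost by 120 kb (70 in MAPS). On its autosomes outside crowded windows, an added setting chosen after seeing the data, these 6 values were 29.6%, 38.5%, 26.2, -13.9, -60 kb and 30 kb. With an FDR under 0.0001 the first 5 were 21.6%, 43.6%, 15.9, 2.03 and 0 kb. The first 4 were 50.03%, 25.8%, 13.4 and 16.9 with anchors 1 bin apart, 26.1%, 50.7%, 28.3 and 8.56 with touching loops merged, and 28.8%, 44.6%, 13.4 and 16.2 with at least 20 contacts. Strongly lower promoter bins (11.7%) made up 8.66% in FitHiChIP, 9.57% at the stricter FDR, 14.3% with neighbouring bins, 7.41% with at least 20 loops and 13.4% with a pseudocount of 0.5. The median log2 ratio at held loops (-0.07) was 0.00 in FitHiChIP, -0.10 at the stricter FDR, -0.27 scaled by total contacts and -0.020 outside crowded windows. FitHiChIP called 4.45% of lost loops with auxin at the stricter FDR (1.84%). The excess of held over lost loops in ESCs (22.6 points) was 36.6, 23.6 and 27.7 in FitHiChIP, at the stricter FDR and outside crowded windows. The remaining 13 alternatives of these results moved less than their spread. Among them was the gap in share held between the highest and the lowest gene class, but not which classes these were. In MAPS they were Notch genes and cadherin and matrix genes. In FitHiChIP, at the stricter FDR and outside crowded windows they were chromatin regulators and FGF and BMP genes. Of 104 alternatives for the single gene classes and all promoter bins, 48 moved more and 56 less. The causes were not tested. Loops under 12 contacts, or in bins without a peak at either anchor, are not listed by MAPS, so contacts that weak were not detectable.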
